A study of Mus musculus with 20 samples.

Results

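The 5 genes described here are Bdh1, Bdh2, Oxct1, Acat1 and Slc16a1, a list of genes of ketone body use and synthesis given by symbol. They were read in whole-heart RNA of C57BL/6 wild-type mice aged 12 weeks. They are 5 of 49005 genes with counts and 5 of the 18069 genes that passed the filter on low counts. Hearts of both sexes were taken from mice fed chow or a high-fat diet. The titles call the second diet PA, which by elimination is the high-fat one, since the series names no further diet. Diet and sex make 4 groups of 5 samples each. Chow male 4 was counted per gene rather than per exon piece and was left out, so that chow males had 4 libraries and 19 libraries entered the comparisons. The labels do not say what the high-fat diet contained, how long it was fed or whether each sample was a separate animal, and p-values therefore measure the spread between these samples.

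Ketone bodies are small acids that the liver makes from fatty acids and that heart muscle oxidises readily. Slc16a1 encodes the monocarboxylate transporter MCT1, which passes them across the plasma membrane together with lactate and pyruvate. In the mitochondrion BDH1 converts 3-hydroxybutyrate to acetoacetate, OXCT1 (also called SCOT) activates acetoacetate with coenzyme A taken from succinyl-CoA, and ACAT1 splits acetoacetyl-CoA into acetyl-CoA for the citrate cycle. The BDH1 and ACAT1 reactions run in both directions. BDH2 is a cytosolic enzyme of the short-chain dehydrogenase family.

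The genes of ketone body use did not all move alike with diet. Oxct1 fell in both sexes, to between 74.4% and 82.8% of the chow mean in each high-fat female and to between 73.6% and 82.1% in each high-fat male. Bdh1 fell by 53.5% in females, and in males 4 of the 5 high-fat libraries were low while the fifth stayed at the chow level. Acat1, Slc16a1 and Bdh2 did not pass the test for diet in either sex.

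Levels between genes were set against each other per kilobase of exon, in CPM per kb, where CPM are read counts scaled to a common library total after TMM adjustment. Oxct1 stood highest at 371 ± 51 CPM per kb (SD, n = 19 libraries), above 99.2% of the genes tested. Acat1 followed at 206 ± 16.2, Slc16a1 at 37.2 ± 2.36, Bdh1 at 12.0 ± 5.12 and Bdh2 at 0.118 ± 0.0552 CPM per kb. These 5 ranges over the 19 libraries did not overlap. Oxct1 pieces of 4 and 17 bases read 31.0 and 33.0 CPM, so a read that crosses exon pieces appears to be counted in each of them. Such counting would raise the per-kb level of genes with many short exons. By the largest exon piece alone the levels were 156 CPM per kb for Oxct1, 34.5 for Acat1, 26.4 for Slc16a1 and 4.42 for Bdh1, in the same order.

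In the coordinates of the files, which are those of the mouse build GRCm38, Bdh1 (ENSMUSG00000046598) lies on the plus strand of chromosome 16 from 31422280 to 31458901, with 18 exon pieces. Oxct1 (ENSMUSG00000022186) lies on the plus strand of chromosome 15 from 4026383 to 4155344, with 26 pieces. Acat1 (ENSMUSG00000032047) lies on the minus strand of chromosome 9 from 53580522 to 53610382, with 16 pieces. Slc16a1 (ENSMUSG00000032902) and Bdh2 (ENSMUSG00000028167) both lie on the plus strand of chromosome 3, from 104638668 to 104658462 with 5 pieces and from 135281221 to 135304426 with 16 pieces. No piece of the 5 genes was shared with another gene in the files.

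Bdh1 has a pair of annotated starts, and the hearts used the downstream one. The first exon piece, 233 bases from 31422280 to 31422512, had 0 counts in all 19 libraries, which allows up to 3 counts or 0.0539 CPM in the smallest of them, for counting error only. The piece at the downstream start, from 31428752 to 31428987, had 76 to 475 counts in every library and 5123 in all. The windows before both starts are shown because the reads separate them, the Oxct1 window because this gene fell in both sexes, and the Slc16a1 window because it holds the one E-box match. Each window runs from 250 to 51 bases before the RefSeq start (GRCm38.p6), is on the plus strand and is written 5′ to 3′ in lower case, and capitals mark the E-box CACGTG. RefSeq windows were matched for 4 of the 5 genes, all but Acat1.
Bdh1 upstream start, no reads, chr16:31422047-31422246: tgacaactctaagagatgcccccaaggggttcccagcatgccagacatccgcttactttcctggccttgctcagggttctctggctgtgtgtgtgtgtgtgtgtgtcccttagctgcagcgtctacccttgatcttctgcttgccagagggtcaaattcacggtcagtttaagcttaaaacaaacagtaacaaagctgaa
Bdh1 downstream start, in use, chr16:31428503-31428702: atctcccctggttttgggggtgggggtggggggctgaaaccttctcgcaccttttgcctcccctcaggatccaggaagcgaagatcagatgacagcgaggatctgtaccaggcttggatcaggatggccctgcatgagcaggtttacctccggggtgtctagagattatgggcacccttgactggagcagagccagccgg
Oxct1, chr15:4026178-4026377: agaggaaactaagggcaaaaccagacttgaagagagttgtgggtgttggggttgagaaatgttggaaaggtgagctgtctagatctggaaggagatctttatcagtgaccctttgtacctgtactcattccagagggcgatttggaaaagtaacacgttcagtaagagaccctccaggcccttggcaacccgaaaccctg
Slc16a1, chr3:104638414-104638613: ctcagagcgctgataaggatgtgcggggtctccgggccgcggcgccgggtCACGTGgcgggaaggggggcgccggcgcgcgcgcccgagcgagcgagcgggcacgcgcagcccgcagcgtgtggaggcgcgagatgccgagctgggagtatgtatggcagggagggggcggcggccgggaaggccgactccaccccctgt
Both strands were searched for 5 motifs. The nuclear receptor half-site AGGTCA was in 11.4% of all 32851 promoter windows of this length, its direct repeat with any 1 base between (AGGTCANAGGTCA, which contains the half-site) in 0.0244%, CACGTG in 4.34%, CCAAT in 28.4% and GGGCGG in 24.6%. The Bdh1 and Oxct1 windows held none of the 5. The Slc16a1 window, at 76% G and C, held 1 CACGTG and 1 GGGCGG, and the Bdh2 window held 1 CCAAT. A match of letters is not a bound site, and no match says only that these letters are not in the window.

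Totals were 57805110 to 85794067 counts per library. High-fat females 4 and 5 stood apart: the nuclear RNA Malat1 read 117 and 63.9 CPM there and 1132 to 1533 CPM in the other 17 libraries. Neat1, another nuclear RNA, was called lower on high fat in females (-1.11, adjusted p 0.0470 by edgeR). It read 112 to 501 CPM in high-fat females and 679 to 798 in chow females, so its fall was not limited to females 4 and 5. Without those libraries 1 of these 2 nuclear RNAs was called lower on high fat in females and 1 in males. Because high-fat females 4 and 5 stood apart, calls for the 5 genes and for genes listed around ketone metabolism are also given without this pair where they differ. The 5 hepatocyte markers summed to at most 1.10 CPM, so transcripts of liver, the main ketone-making organ, were near 0. In whole-heart RNA fewer cells of a type and less RNA per cell cannot be told apart.

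Markers of several cell types moved with diet in females beside Oxct1 and Bdh1. The 6 cardiomyocyte markers, all detected, summed to 71145 to 78544 CPM in chow females and 65213 to 74443 in high-fat females, and 1 of 6 was called lower, the troponin Tnnt2 (-0.31, adjusted p 0.0140). Nppa, of the 4 atrial markers, also fell by 50.1% (adjusted p 0.0266 by edgeR). That list summed to 94.9 to 154 CPM on chow and 40.7 to 90.3 on high fat, and the sum was mostly Nppa. The female means of Myl7 were 1.38 CPM on chow and 1.59 on high fat, and those of Myl4 1.58 and 1.95. Neither was called, and Sln was near 0. The 5 fibroblast markers summed to 943 to 1051 CPM in chow females and 1136 to 1418 in high-fat females. Called higher were the collagens Col1a1 (0.50) and Col3a1 (0.52). The other markers of this list were not called. Dcn averaged 360 CPM on chow and 356 on high fat, Pdgfra 42.7 and 46.3, and Tcf21 4.57 and 5.13. Of 5 endothelial markers 3 were called higher, Cdh5 (0.29), Tie1 (0.28) and Pecam1 (0.20), by edgeR as before. Without high-fat females 4 and 5 the cardiomyocyte genes Tnni3 (-0.29) and Pln (-0.22) were called lower as well, and 4 of 5 blood markers higher. In males 0 markers of these lists were called for diet. Male cardiomyocyte sums were 73674 to 79100 CPM on chow and 66861 to 72438 on high fat. Without the female pair Nppa (-0.78) was called lower in males and Cidea (0.36), of the brown adipocyte list, higher. The rest of that list, Ucp1 and Elovl3, did not pass the filter, with means of 0.00365 and 0.00345 CPM over all libraries. White adipocyte markers summed to at most 1.68 CPM and skeletal muscle markers to at most 3.03 CPM, and 0 of either list were called for diet, nor were immune markers. The part of these markers in the diet results was not tested.

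**Figure D1:**
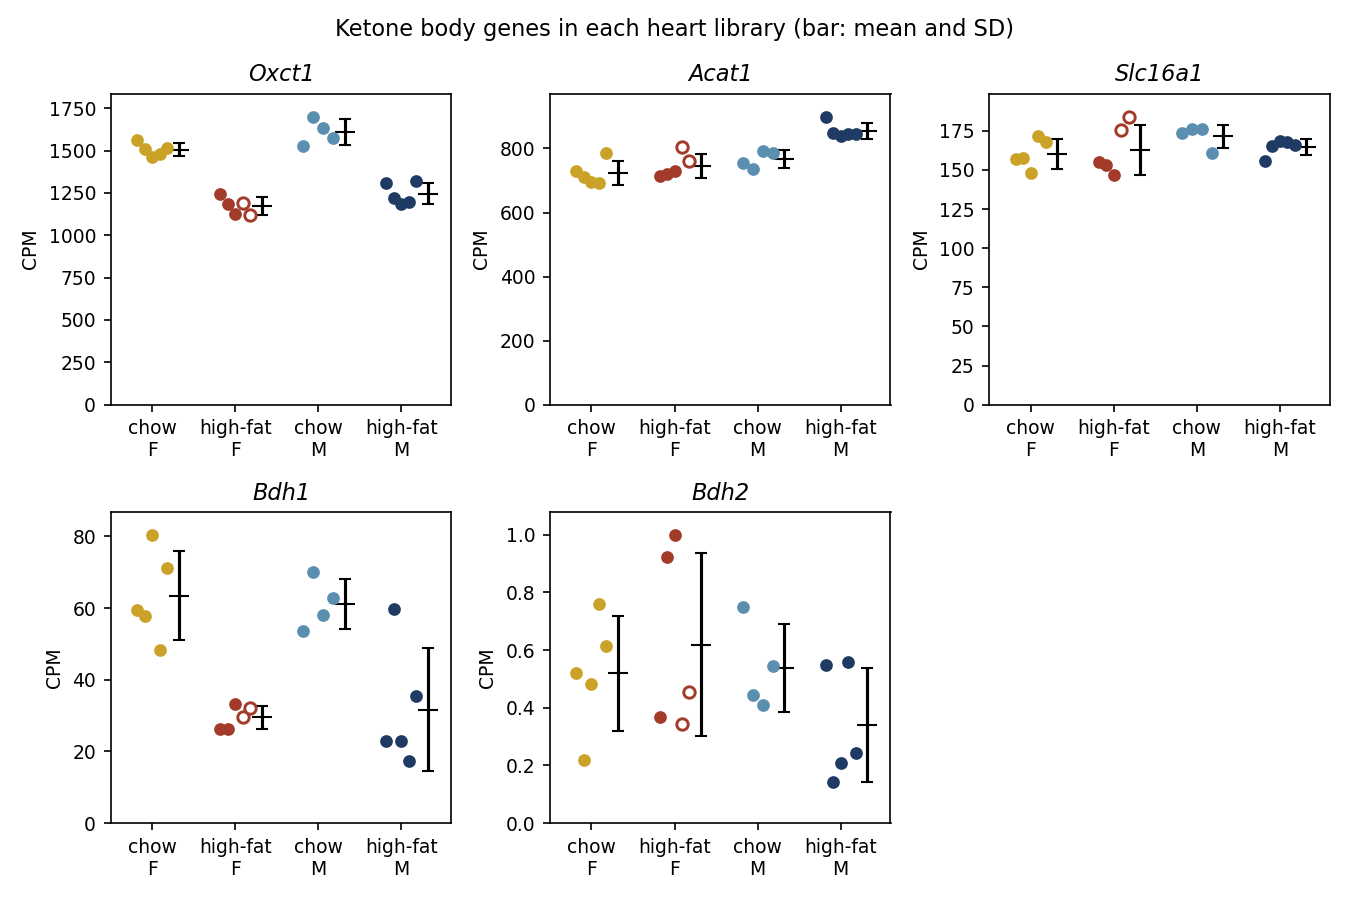
Normalised read counts (CPM, linear axis from 0) of the 5 genes in each of 19 heart libraries, by diet and sex; bars give the mean and SD, and open points are high-fat females 4 and 5. Oxct1 is lower in every high-fat library of both sexes, and Bdh1 in all but high-fat male 2.

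In females 2 of the 5 genes were called lower on high fat and 0 higher, at an adjusted p under 0.05 (edgeR, quasi-likelihood test, Benjamini-Hochberg adjustment over all genes tested). Of the 18069 genes 2.53% were called, 1.67% higher and 0.863% lower. In males 1 of 5 was called lower and 0 higher, where 0.764% of genes were called, 0.398% higher and 0.365% lower. The median log2 change of the 5 was 0.02 in females and -0.37 in males, beside -0.02 and 0.00 over all genes tested.

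Oxct1, the step that commits acetoacetate to oxidation, separated the diets completely in both sexes. In chow females it read 1561, 1510.2, 1465, 1481 and 1513 CPM, and high-fat females 1247, 1187, 1126, 1188 and 1119.9 CPM. Every high-fat female was below every chow female. The log2 change was -0.36 with an SE of 0.05 and an adjusted p of 0.000748 by edgeR, the 7th smallest p among all genes. Chow males read 1526, 1701, 1635 and 1577 CPM, and high-fat males 1307, 1223, 1185, 1197 and 1322 CPM. The male groups did not overlap either, with a log2 change of -0.37, an SE of 0.05 and an adjusted p of 0.000993 by edgeR, the 8th smallest. Group means were 1506 ± 36.8 CPM (SD, n = 5) in chow females, 1174 ± 52.3 (SD, n = 5) in high-fat females, 1610.0 ± 75.5 (SD, n = 4) in chow males and 1247 ± 63.6 (SD, n = 5) in high-fat males. Of the 18069 genes, 1.9% had all high-fat females below all chow females and 3.98% the same in males. Oxct1 was called in both sexes under every alternative run and without each library in turn, with log2 changes between -0.38 and -0.35 in females or between -0.39 and -0.34 in males when single libraries were left out.

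Bdh1, which makes acetoacetate from 3-hydroxybutyrate, had the lowest log2 change of the 5 in both sexes and varied more between hearts than Oxct1. Chow females read 59.6, 57.8, 80.4, 48.4 and 71.2 CPM, and high-fat females 26.3, 26.2, 33.3, 29.6 and 32.1 CPM. The highest high-fat female was below the lowest chow female, and the log2 change was -1.11 (SE 0.25) with an adjusted p of 0.0230 by edgeR. The female call was lost when chow female 3, the highest of its group, was left out, with a log2 change of -1.01 and an adjusted p of 0.0519. Chow males read 53.5, 70.0, 58.2 and 62.9 CPM, and high-fat males 23.1, 59.9, 22.9, 17.3 and 35.5 CPM. High-fat male 2 stood at 97.9% of the chow male mean while the other 4 stood between 28.3% and 58.0%, so the groups overlapped. The male log2 change of -0.95 (SE 0.26) had an adjusted p of 0.123 by edgeR and was not called, while DESeq2 gave an adjusted p of 0.0275. Without high-fat male 2 it was -1.31 with an adjusted p of 0.00290, and without high-fat females 4 and 5, which share the estimate of spread, -0.94 with an adjusted p of 0.0414. Male Bdh1 was thus called under 2 of 8 alternatives and in 1 of 19 fits that each left out 1 library. Adjusted p-values in these sets ran up to 0.154 and 0.352 by edgeR. Oxct1 in high-fat male 2 was 76.0% of the chow male mean, within the range of its group.

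Acat1, the thiolase that yields acetyl-CoA and that also serves isoleucine breakdown, was not called for diet in either sex. Chow females read 731, 710.1, 696, 694 and 786 CPM, and high-fat females 713, 719, 728, 804 and 761 CPM. These groups overlapped, with a log2 change of 0.04 (SE 0.05, 95% interval -0.05 to 0.14) and an adjusted p of 0.613 by edgeR. Chow males read 753, 736, 793 and 787 CPM, and high-fat males 899.7, 847, 839.9, 845 and 846 CPM. All 5 high-fat males were above all 4 chow males, as was so for 3.6% of genes. The male log2 change of 0.16 (SE 0.05) had an adjusted p of 0.208 by edgeR and was not called. It was called without high-fat females 4 and 5 (0.16, adjusted p 0.0405) and when only the male groups were fitted (0.16, adjusted p 0.0246). These were the only 2 of 8 alternatives that called it. Of 19 fits that each left out 1 library, 0 called it, with adjusted p-values of 0.145 to 0.520 by edgeR. Without that female pair the female value was -0.01, with an adjusted p of 0.931.

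Slc16a1, the transporter, had the closest group means, from 160.5 CPM in chow females to 172 CPM in chow males. Chow females read 157, 158, 148, 172 and 168 CPM, and high-fat females 155, 153, 147, 175 and 184 CPM. The high values of high-fat females were those of libraries 4 and 5. The female log2 change was 0.02 (SE 0.06, 95% interval -0.10 to 0.15) with an adjusted p of 0.865 by edgeR, and without the pair it was -0.08 with an adjusted p of 0.349. Chow males read 173, 176, 176 and 161 CPM, and high-fat males 156, 166, 168, 168 and 166 CPM. The male groups overlapped, with a log2 change of -0.06 (95% interval -0.19 to 0.07) and an adjusted p of 0.972 by edgeR. The intervals exclude a change of the size seen for Oxct1 in either sex, and they do not show that the groups were equal.

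Bdh2 was the lowest of the 5 genes, with 10 to 72 counts per library. Its level was 0.519 ± 0.198 CPM in chow females, 0.618 ± 0.317 in high-fat females, 0.537 ± 0.154 in chow males (n = 4) and 0.340 ± 0.198 in high-fat males (SD, n = 5 elsewhere). The log2 change was 0.26 (SE 0.40) in females and -0.66 (SE 0.43) in males, with adjusted p-values of 0.735 and 0.807 by edgeR. The 95% intervals ran from -0.57 to 1.10 in females and from -1.57 to 0.25 in males, and include both a rise and a fall.

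**Figure D2:**
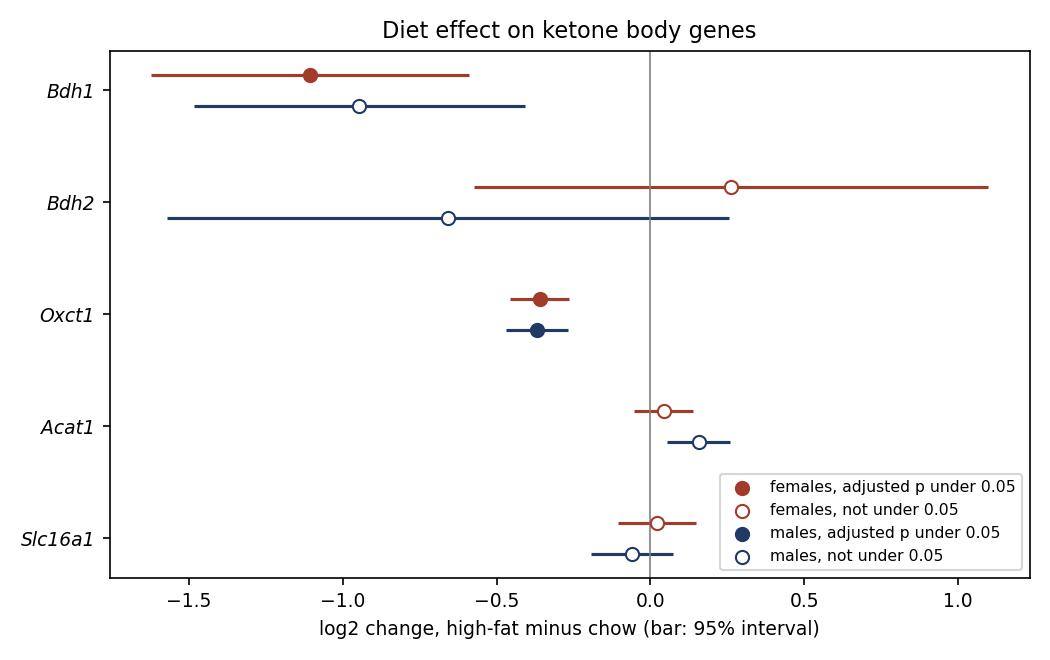
Log2 change of high-fat minus chow (horizontal axis) for the 5 genes in females and males; bars are 95% intervals and filled points had an adjusted p under 0.05 by edgeR. Oxct1 at -0.36 and -0.37 has narrow intervals, and Bdh1 at -1.11 and -0.95 wide ones.

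The diet effects were read along each gene, piece by piece, as a description, since neighbouring pieces share reads. Of the 13 Bdh1 pieces with a mean of at least 1 CPM, 13 were lower on high fat in females (log2 ratios of group means -1.30 to -1.06) and 13 in males (-1.07 to -0.84). In each of the 13, high-fat male 2 was the highest of the high-fat males, so its Bdh1 level was not that of 1 exon. Of 23 Oxct1 pieces, 23 were lower in females (-0.45 to -0.29) and 23 in males (-0.44 to -0.25). The high-fat libraries were all below the chow libraries in 20 of these pieces in females and 21 in males.

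Acat1 was uneven along its length in males. The 14 pieces were all higher on high fat, and the log2 ratio was 0.35 in the last piece of the transcript, 1965 bases from 53580522 to 53582486 outside the coding sequence, and 0.30 in the coding piece before it. The other 12 pieces lay between 0.04 and 0.17. The last piece as a share of the CPM of the coding pieces was 10.7% ± 0.476 (SD, n = 5, range 10.2 to 11.3) in high-fat males and 9.22% ± 0.404 (SD, n = 4, range 8.94 to 9.82) in chow males. These ranges did not overlap. The share was 9.51% ± 1.07 in chow females (range 8.87 to 11.41) and 9.03% ± 0.627 in high-fat females (range 8.44 to 9.76; SD, n = 5 each), which overlapped. Chow female 4, at 11.41%, was above every high-fat male, the highest of which was at 11.33%. The pattern was noticed in these data and was not tested.

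**Figure D3:**
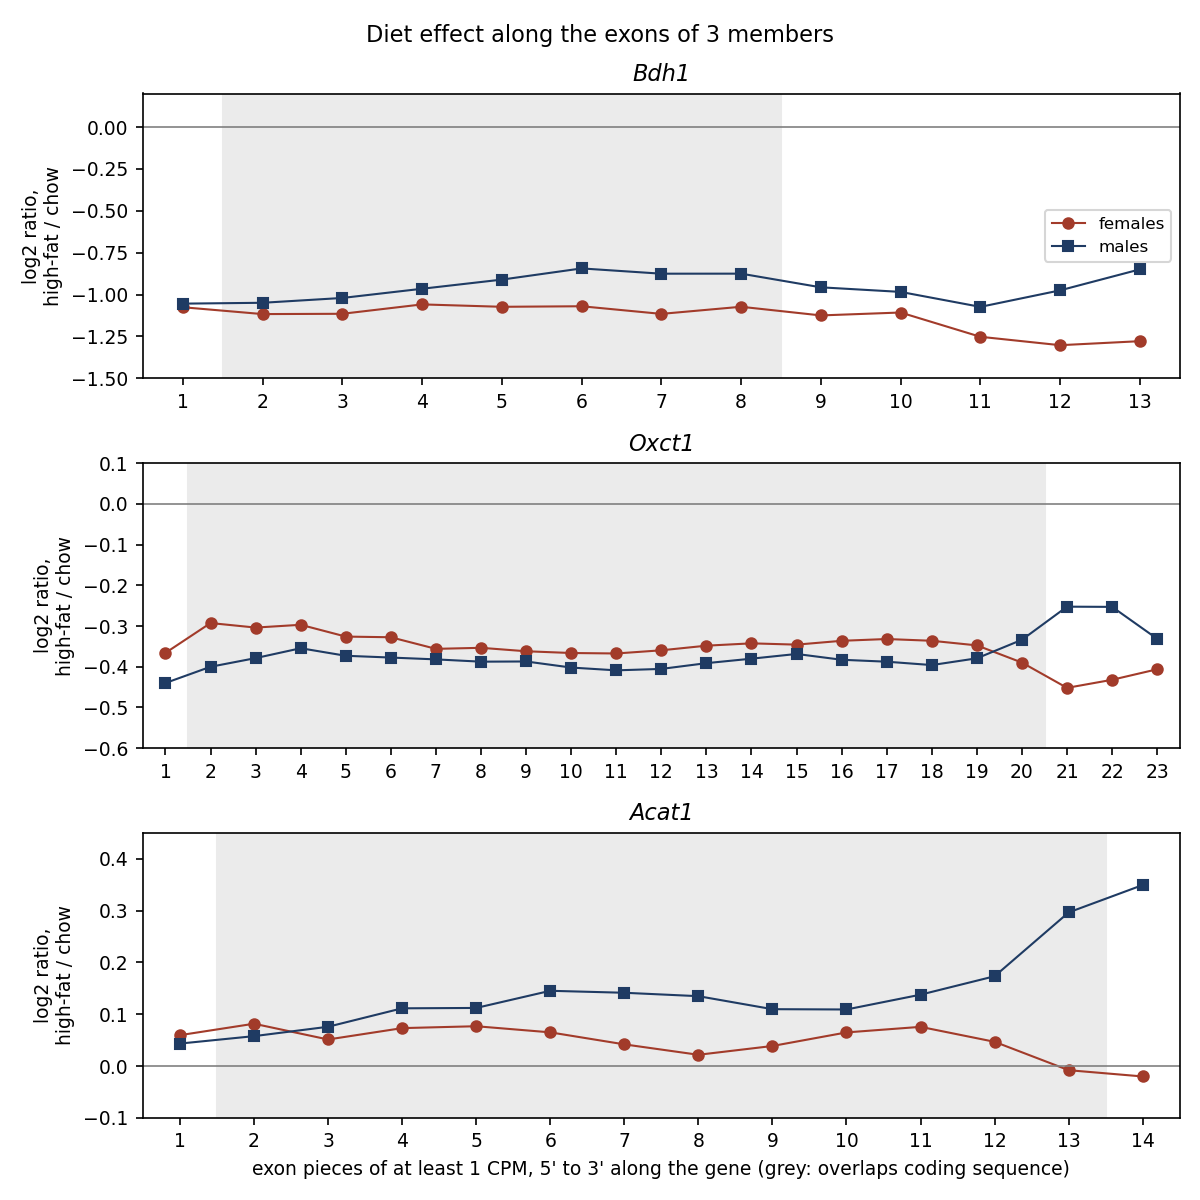
Log2 ratio of high-fat to chow group means (vertical axis, a separate scale for each gene) for exon pieces of at least 1 CPM, ordered 5′ to 3′, of Bdh1, Oxct1 and Acat1, in females (circles) and males (squares); grey marks pieces that overlap coding sequence. Bdh1 and Oxct1 are below 0 in every piece, and Acat1 in males is highest, at 0.35, in its last piece.

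The diet effect did not pass the test for a difference between the sexes in any of the 5 genes. Female minus male differences in log2 change were 0.01 for Oxct1 (95% interval -0.13 to 0.15, adjusted p 0.960), -0.16 for Bdh1 (-0.90 to 0.58, adjusted p 0.860) and -0.11 for Acat1 (-0.25 to 0.03, adjusted p 0.567). They were 0.08 for Slc16a1 (-0.10 to 0.27, adjusted p 0.712) and 0.92 for Bdh2 (-0.32 to 2.16, adjusted p 0.596), all by edgeR's quasi-likelihood test. The Oxct1 interval is narrow beside its fall of 0.36, while the Bdh1 interval is wide. Over all genes 0 of 18069 (0%) were called for this interaction by edgeR, 1839 had an unadjusted p under 0.05, and DESeq2 called 58.

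On high fat, Acat1 was lower in females than in males. The high-fat females read 713 to 804 CPM and the high-fat males 839.9 to 899.7 CPM, so that no library overlapped. The log2 difference was -0.20 (SE 0.05) with an adjusted p of 0.0109 by edgeR, and it was called without each library in turn and under all 8 alternatives. This was 1 of 5 genes, in a comparison where 10.3% of all genes were called, 3.92% lower in females, and where 5.22% had every female below every male. Along Acat1, 14 of 14 pieces were lower in females and 9 did not overlap. The log2 ratio of group means was -0.42 in the last piece of the transcript and -0.33 in the coding piece before it. In the other pieces it lay between -0.20 and -0.07. On chow the Acat1 difference was -0.09 (SE 0.05, adjusted p 0.408), and the change of the sex difference with diet is the interaction above. Fibroblast markers also differed between the sexes on high fat: 3 of 5 were called higher in females, Col1a1 (0.44), Col3a1 (0.49) and Tcf21 (0.45). The macrophage marker Cd68 (0.61), of 4 immune markers tested, was called higher too. The other immune markers tested were not called. Cd74 averaged 121 CPM in high-fat females and 105 in high-fat males, Cd79a 0.497 and 0.394, and Ptprc 6.38 and 8.96. Ptprc ranged from 0.714 to 11.1 CPM in these females. Without high-fat females 4 and 5 the endothelial marker Egfl7 (0.26) was called higher too, and on chow Tcf21 (0.45) was called higher with all libraries. Their part in the Acat1 difference was not tested. The other 4 genes were not called on high fat, with adjusted p-values of 0.168 for Bdh2, 0.200 for Oxct1, 0.790 for Bdh1 and 0.882 for Slc16a1.

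On chow 0 of the 5 genes were called between the sexes by edgeR, where 3.22% of all genes were called. The adjusted p-values ran from 0.330 for Oxct1 to 0.981 for Bdh2, and 0 of the 5 had an unadjusted p under 0.05 or were called by DESeq2. The log2 difference, females minus males, was -0.10 for both Oxct1 and Slc16a1, within overlapping ranges. Females and males also differed in clock genes: the summed level of 10 of them was 469 to 597 CPM in females and 269 to 341 in males, and the clock output gene Dbp averaged 91.8 CPM in females fed chow against 8.95 CPM in the males. Of the 10, 5 were called higher and 3 lower in females on either diet, and Arntl was called lower on high fat in females (-0.65, adjusted p 0.0235). Sex and what moves the clock genes cannot be told apart in these samples.

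Of 39 other genes listed around ketone use, transport and fatty acid oxidation, 31 passed the filter, and most were not called for diet. In females 2 were called higher and 1 lower: the thiolases Acaa2 (0.39, SE 0.10) and Hadhb (0.26, SE 0.07) of fatty acid oxidation, and the transporter Slc16a6 (-0.38, SE 0.09). Their adjusted p-values by edgeR were 0.0349 for Acaa2, 0.0464 for Hadhb and 0.0310 for Slc16a6. None of these 3 was called without high-fat females 4 and 5, when Ldhb, a subunit of lactate dehydrogenase, was called lower. In males Hadhb (0.33, SE 0.07, adjusted p 0.0378) was called higher and 0 lower. With single libraries left out, Hadhb was called in 3 of 19 fits in females and 8 of 19 in males, Acaa2 in 11 of 19 in females and Slc16a6 in 13 of 19. By its largest exon piece alone the Hadhb change in females was -0.11 and not called, but that piece read 0.777 CPM per kb where the whole gene read 468. Without the female pair Acaa2 was also called higher in males, and Ldha and Ldhb lower. The median log2 change of the 31 was 0.00 in females and -0.03 in males.

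Within these lists the 7 genes of succinyl-CoA and acetyl-CoA handling, some of which make the coenzyme A donor of OXCT1, had 0 called for diet in either sex. Sucla2, a subunit of succinyl-CoA synthetase, read 517 to 853 CPM in high-fat females and 939 to 989 in high-fat males, and was lower in females on high fat by -0.43 (SE 0.09, adjusted p 0.00686). Its lowest library was high-fat female 5. Slc16a6 was lower in females on high fat by -0.73 (SE 0.09, adjusted p 0.000106), with 5.25 to 7.42 CPM against 9.31 to 11.1 CPM. Both differences were called without the pair by edgeR, at -0.28 for Sucla2 and -0.62 for Slc16a6, but Sucla2 was not called when only the high-fat groups were fitted (adjusted p 0.0734). They were the 2 of the 31 genes called for sex on high fat with all libraries. Bsg, the chaperone that brings MCT1 to the membrane, had log2 diet changes of 0.02 and -0.03 and was not called. Of the regulators, 0 of 5 tested were called for diet, with Esrra at 0.07 in females and -0.08 in males and Ppargc1a at -0.52 (SE 0.34) and 0.07 (SE 0.36). Of 4 receptor genes for ketone bodies and related acids only Hcar1 passed the filter, at 0.0786 to 0.168 CPM in the group means.

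More of these genes were called between the sexes without high-fat females 4 and 5. On high fat 9 of the 31 were then called lower in females and 0 higher, where 10.4% of all genes were called by edgeR. Beside Sucla2 and Slc16a6 they were the succinyl-CoA genes Suclg1 (-0.17), Suclg2 (-0.15) and Dlst (-0.16), the citrate synthase gene Cs (-0.12), the thiolases Hadhb (-0.21) and Acaa2 (-0.22), and the coactivator Ppargc1a (-0.57), with adjusted p-values up to 0.0479. Acat1 was at -0.25 in the same fit, with an adjusted p of 0.00160. With all libraries these 7 genes were not called, and Ppargc1a, which read 13.7 to 83.4 CPM in high-fat females and 98.6 to 138 in high-fat males, had an adjusted p of 0.0502. On chow 0 of the 31 were called with all libraries. Without the pair, which is not part of this contrast but shares its fit, 4 were called lower in females on chow, Aacs (-0.37), Slc16a6 (-0.25), Ppargc1a (-0.50) and the deacetylase Sirt3 (-0.16), and Slc16a13 (0.33) higher, where 10.5% of all genes were called.

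The order of the groups differed from gene to gene. Oxct1 ran chow males, chow females, high-fat males and high-fat females from high to low, and only the step from chow females to high-fat males was between ranges that did not overlap. Acat1 ran high-fat males, chow males, high-fat females and chow females, and only the first step was free of overlap. For Bdh1, Slc16a1 and Bdh2 every neighbouring pair of groups overlapped. Bdh1 and Oxct1 had a Pearson correlation of log2 CPM of 0.78 over 19 libraries that share the diet groups, and of 0.07 after the group means were removed. Within groups the libraries thus showed little relation between the pair.

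Genes with the most similar profile were taken by Pearson correlation of log2 CPM over the 19 libraries, without removing group means. Likeness here thus includes differences between the 4 groups that the genes share. For Oxct1 the nearest genes were Armc2 (0.95), Rragd (0.88), Abat (0.87), Clip4 (0.85) and Ppp3cc (0.83). For Bdh1 they were Rnf34 (0.85), Zfyve21 (0.85), Abat (0.83), Selenos (0.82) and Pcyt2 (0.80). For Acat1 they were Acadm (0.93) and Etfdh (0.88), both of fatty acid oxidation, with Aldh1a1 (0.87), Dhrs4 (0.85) and Ddit4l (0.84). For Slc16a1 they were Rab28 (0.84), Mrpl3 (0.84), Gatad1 (0.84), Uqcc1 (0.83) and Klhdc2 (0.83). Emid1 (0.80), Gamt (0.71), Dhx16 (0.69), Mfap2 (0.67) and Nudt14 (0.65) were nearest to Bdh2, which rests on 10 to 72 counts per library. The lists depended on high-fat females 4 and 5. Over the other 17 libraries Acadm stayed first for Acat1 (0.96) and Hadh, Acads and Slc25a20 followed, Armc2 stayed first for Oxct1 (0.94) and Rnf34 for Bdh1 (0.88). Of 5 genes each, 2 were shared between the lists for Bdh1, Bdh2 and Acat1 and 1 for Oxct1 and Slc16a1.

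Chow male 4, counted per gene, is given for completeness on its own scale: 46969 of 31686627 counts for Oxct1, 20872 for Acat1, 9425 for Slc16a1, 3867 for Bdh1 and 10 for Bdh2. The order of the 5 genes by count was that of the other libraries, and the values entered no comparison.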

How the data were processed

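Messenger RNA of 20 heart samples was sequenced after poly(A) selection, per the labels' protocols. The authors deposited whole-number read counts, for 19 samples per exon piece (425461 pieces) and for chow male 4 per gene. The counter and its strand setting are not given in the sources used here; the submitters' processing notes name Salmon 1.5.1, DESeq2 1.32.0 and GRCm39, while the coordinates in the files match GRCm38 (GENCODE vM21; 89.6% of gene spans identical). Counts were summed per gene. Of 33309 pieces joined between genes, 27829 listed for 1 gene were given to it and 5480 (1.35% to 1.49% of counts) were not used. edgeR 4.0.16 (R 4.3.3) fitted 1 model of the 4 groups (TMM, filterByExpr, quasi-likelihood test, Benjamini-Hochberg over 18069 genes, called at an adjusted p under 0.05, 15 residual degrees of freedom). The same fit was also run on simulated counts, drawn with the gene means and library sizes of the real data. DESeq2 1.42.0 was an alternative, among other filters, samples and scalings. Named were all 5 members, any gene of the pathway lists called, up to 2 others per list by level, and the 5 most correlated genes; 1 pathway list is not reported here. Cell type markers are given by list. The members and lists were chosen with earlier results of these data known. No 2 libraries were alike within sampling noise. Same-numbered samples of different groups correlated by -0.07 to 0.16 in their deviations from group means, so the numbers were not used as pairs.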

Additional observations from a re-analysis of the deposited data

Results flagged for a closer look

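High-fat male 1 stood apart from the other 4 high-fat males in 3 genes, with a gap to the nearest library that exceeded Dixon's 95% critical value for 5 samples. It had the highest Acat1, at 899.7 CPM where the others read 839.9 to 847 CPM, the lowest Slc16a1, at 156 CPM where the others read 166 to 168 CPM, and the highest Acaa2, at 1297 CPM. The screen covered 9 genes in 36 groups, and chance gives such a gap in about 1 group in 20.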

How the results depend on the processing

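Oxct1 in both sexes and the sex difference of Acat1 on high fat kept their direction and their call under each of 8 alternatives; the counts over all genes did not. DESeq2 called 993 genes for diet in females (457 by edgeR), 256 in males (138), 58 for the interaction (0) and 905 for sex on chow (582). With no filter on low counts the numbers were 195, 84, 351 for sex on chow and 1108 for sex on high fat (1866). Fitting only the groups compared gave 21, 572, 1538 and 547, and counting only each gene's largest piece 165, 44, 241 and 1023. Without high-fat females 4 and 5, an alternative chosen after seeing the data, they were 906, 474 and 1916, the last for sex on chow. The members called for diet in males were 2 by DESeq2, 2 in the male groups alone and 3 without that pair (1 in the fit reported).
With the replicate block the diet effect in males had 85 calls, and the members called stayed 2 in females and 1 in males; the numbers are not known to pair the samples.
Signs turned for values that were not called, and for Hadhb by diet in females, which was. By the largest piece, which for Hadhb held 0.777 CPM per kb against 468 for the gene, Hadhb read -0.11 for diet in females and 0.37 for sex on chow, Oxct1 -0.0021 for the interaction, Bdh1 -0.0074 for sex on chow and Acaa2 0.044 for sex on high fat. Without the pair Acat1 read -0.0094 and Slc16a1 -0.084 for diet in females, and Slc16a1 -0.028 and Acaa2 -0.10 for the interaction.
Leaving out each library in turn gave 219 to 909 calls for diet in females, 42 to 198 in males, 0 to 5 for the interaction, 259 to 861 for sex on chow and 1096 to 3447 for sex on high fat. The members called were 1 to 2 for diet in either sex. Values that were not called turned sign within -0.028 to 0.057 for Slc16a1 by diet in females, and -0.31 to 0.20 for Bdh1 and -0.024 to 0.037 for Oxct1 in the interaction. They did so within -0.045 to 0.14 for Bdh1 and -0.23 to 0.15 for Bdh2 in sex on chow, and -0.26 to 0.25 for Bdh1, -0.070 to 0.014 for Slc16a1 and -0.10 to 0.040 for Acaa2 in sex on high fat. The cause was not tested. Depth was least for Bdh2, with 10 to 72 counts per library.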
